A study of Mus musculus with 2 samples.

Results

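The ATP-binding cassette (ABC) genes of mouse are named by a shared prefix and a subfamily letter, A to G. All genes whose symbol begins with that prefix, a letter from a to g and a digit, and which the annotation classes as protein-coding, were taken from the deposited gene tables. This gave 50 genes of the 42462 in the tables that the annotation could name, or of 21474 protein-coding genes. The rule reads names only and no measured value, though the family was picked for description with earlier results of these data known. Not every product is a transporter: the proteins of subfamilies E and F have the ATP-binding domains but no membrane-spanning part.

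An ABC protein binds and splits ATP in paired cytosolic domains and uses the energy to move a substrate across a membrane through its membrane-spanning domains. Some members carry all domains in 1 chain, while those of subfamilies D and G carry a single set and work as dimers. In the small intestine the family is best known for sending plant sterols and excess cholesterol back into the lumen, for pumping drugs and their conjugates out of the absorptive cell, and for passing cholesterol to apolipoprotein A-I on the blood side.

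Both libraries come from small intestine of C57BL/6J mice, an inbred strain, aged 8 weeks, with no treatment named, and pooled from males and females of a litter. Poly(A) RNA above 200 nt, depleted of ribosomal RNA, was sequenced as stranded read pairs of 76 nt. The 2 libraries are biological replicates 1 and 2 of 1 group, from separate biosamples, so no comparison between groups exists and no test was made. Each value is that of a single library, or a mean with its SD over the pair. The labels do not say which part of the intestine was taken, how many animals were pooled, or the health state, and they give both biosamples the same donor record.

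The libraries held 45472946 and 45822403 expected counts (estimated fragments per gene). Levels are in TPM, which scales each library to the same total and corrects for transcript length. Markers of absorptive cells were present in both libraries: all 10 genes of the enterocyte list had at least 1 TPM, and they summed to 5361 TPM in replicate 1 against 8046 TPM in replicate 2. Of these sums Alpi alone gave 3759 and 1663 TPM, while the other 9 genes were higher in replicate 2. The medians of the list were 177 and 626 TPM. Replicate 1 stood apart by pancreas and stomach RNA. There the 13 exocrine pancreas genes summed to 244346 TPM, against 1743 TPM in replicate 2, and the 10 stomach genes to 19753 and 51.5 TPM. Of the exocrine pancreas sum of replicate 2, Clps alone gave 1288 TPM. The 9 markers of the proximal segment summed to 1330 and 1058 TPM, and the 10 of the distal segment to 426 and 2026 TPM. Differences between the libraries are given below as log2((TPM + 1) / (TPM + 1)), replicate 2 over replicate 1, minus 0.66, the median over all 12218 genes whose mean reached 1 TPM. The added 1 shrinks the ratio of a low gene before centring, which draws its centred difference towards -0.66. In whole tissue, fewer cells of a type and less RNA per cell cannot be told apart.

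Most of the family was present at low or middle level. Both libraries gave 1 TPM or more for 29 of the 50 genes (58.0%), against 49.3% of all protein-coding genes. Another 2, Abca1 and Abcc4, passed this level in replicate 2 only, and 19 were below it in both. The family summed to 564 TPM in replicate 1 against 1089 TPM in replicate 2 (826 ± 372, SD, n = 2), or 0.0564% and 0.109% of all TPM. Only Abcg5 and Abcg8 had a mean above 100 TPM, and 17 genes had a mean of 10 TPM or more. In replicate 1 the order began with Abcc3, Abcg5 and Abcg8, and in replicate 2 with Abcg5 and Abcg8. Abcg5 and Abcg8 together took 19.4% of the family's TPM in replicate 1 and 46.9% in replicate 2, while Abcc3 took 26.6% and 3.15%.

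**Figure D1:**
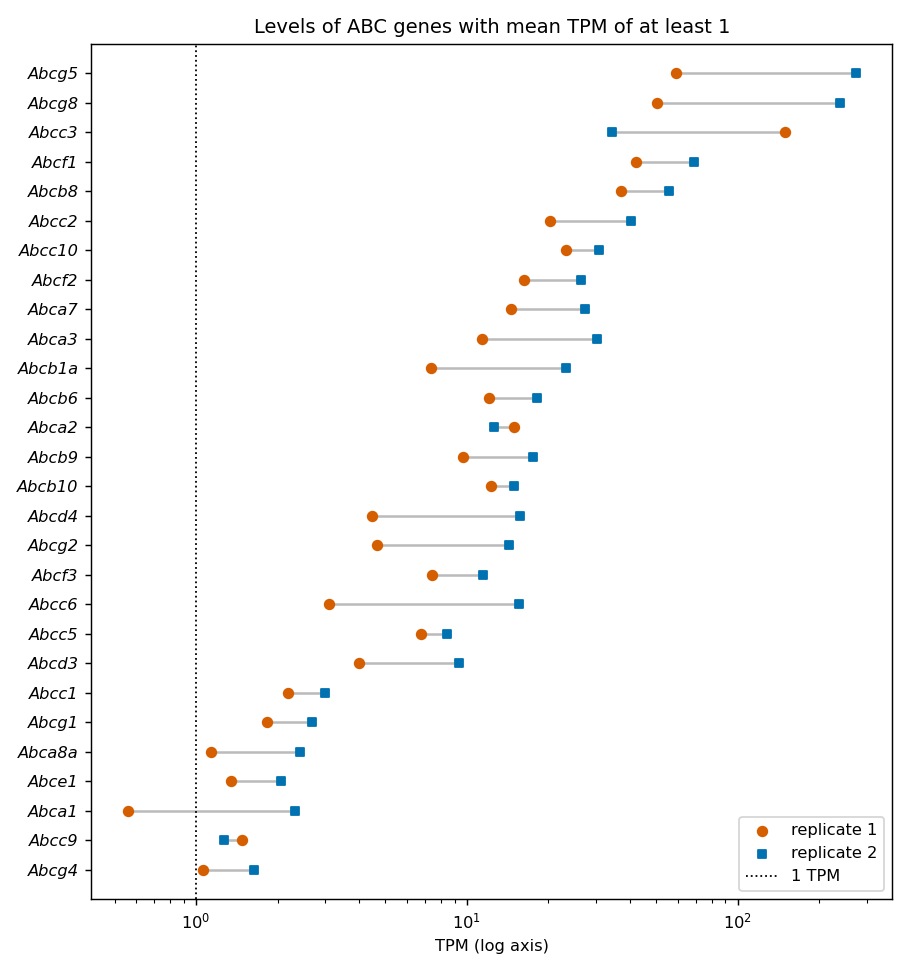
TPM (log axis) of 28 of the 30 ABC genes with a mean of at least 1 TPM, with replicate 1 as circles, replicate 2 as squares and a dotted line at 1 TPM. Replicate 2 lies to the right for 25 genes and to the left for 3 (Abcc3, Abca2 and Abcc9).

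The sterol exporters came first. Abcg5 and Abcg8 encode the partners of a dimer that returns plant sterols and cholesterol to the lumen. Abcg5 (ENSMUSG00000040505.9, chromosome 17, 84658234 to 84683011, minus strand, GRCm38) was at 58.9 TPM in replicate 1 against 273 TPM in replicate 2 (166 ± 151, SD, n = 2). Abcg8 (ENSMUSG00000024254.11, chromosome 17, 84676302 to 84700333, plus strand) was at 50.3 and 238 TPM (144 ± 132, SD, n = 2). Replicate 2 was the higher for both genes, by a centred log2 difference of 1.53 for Abcg5 and 1.55 for Abcg8. The partners kept nearly the same proportion within each library, with 1.17 TPM of Abcg5 per TPM of Abcg8 in replicate 1 and 1.15 in replicate 2 (1.16 ± 0.0157, SD, n = 2).

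The genes lie head to head. The stretch between the RefSeq start of Abcg5 and the nearer RefSeq start of Abcg8 is only 109 bases long, at chr17:84683012-84683120 (GRCm38.p6). It is shown because each gene of the pair has a RefSeq start next to 1 of its ends. It is written on the plus strand, reading towards Abcg8, with capitals on each AGATAA, the core bound by GATA factors, found on either strand:
Abcg5-Abcg8: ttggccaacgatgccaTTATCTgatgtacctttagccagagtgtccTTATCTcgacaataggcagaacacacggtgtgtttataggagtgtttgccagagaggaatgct
The motif occurs 2 times in the stretch, both on the minus strand. In RefSeq windows of 300 bases (250 before and 50 after a start) AGATAA occurred in 11.2% of all 32851 windows, and in at least 1 window of 6 of the 38 ABC genes the table holds (15.8%) against 12.7% of all genes. Abcg5 and Abcg8 are among these 6, and both have a window that holds the whole stretch, so its sites count for both. Only 3 of the 6 genes reached 1 TPM in both libraries. A match describes letters only. Transcripts of Abcg8 that start at or just past the end of this stretch held 54.6% of the gene's TPM in replicate 1 and 54.5% in replicate 2. The rest, 45.4% and 45.5%, was assigned to Abcg8-202, annotated to start at 84676302, inside the span of Abcg5. The Abcg5 transcript that starts at the other end held 59.3% and 60.1% of that gene's TPM. Abcg5-202, annotated to start at 84682202, held 30.45% and 32.82%, and Abcg5-204, from 84676426, held 10.3% and 7.12%. The genes share 82 exonic bases on opposite strands, and whether the counting kept the strands apart is not given in the sources used here.

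Most absorptive cell genes were also higher in replicate 2. Vil1, which encodes the microvillus protein villin, was at 159 and 739 TPM, and Abcg5 stood at 0.371 TPM per TPM of Vil1 in replicate 1 and 0.370 in replicate 2. Vil1 was chosen for this ratio after its values were seen, so the near equality is a description only. Other exporters of the luminal membrane did not keep their proportion to Vil1, with Abcc2 at 0.127 and 0.0548, Abcb1a at 0.0462 and 0.0315 and Abcg2 at 0.0294 and 0.0194 TPM per TPM. On the enterocyte list, 7 of 10 genes were at least 2-fold higher in replicate 2 (median centred difference 1.50) and 1, the alkaline phosphatase gene Alpi, was lower, at 3759 and 1663 TPM. On the distal segment list, 6 of the 8 genes whose mean reached 1 TPM were at least 2-fold higher, with a median of 1.64. The part of absorptive cell or segment content in the difference of Abcg5 and Abcg8 was not tested. Npc1l1, which takes up sterols from the lumen and so works against the pair, was at 130 and 671 TPM (400 ± 383, SD, n = 2), so that Abcg5 stood at 0.455 and 0.407 TPM per TPM of Npc1l1. Soat2, which esterifies the absorbed cholesterol, was at 75.3 and 371 TPM.

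Abca1, which loads cholesterol onto apolipoprotein A-I, was far lower, at 0.56 TPM (287 counts) in replicate 1 against 2.32 TPM (919 counts) in replicate 2 (1.44 ± 1.24, SD, n = 2). Its acceptor Apoa1 was among the abundant genes, at 2549 and 13042 TPM. Abcg1, another cholesterol exporter, was at 1.83 and 2.67 TPM, and its close relative Abcg4 at 1.06 and 1.63 TPM. The liver X receptor genes Nr1h3 and Nr1h2, which encode oxysterol sensors known to switch on Abca1, Abcg1, Abcg5 and Abcg8, were at 31.8 and 104 TPM and at 112 and 218 TPM. Of the 12 sterol partner genes, 5 were at least 2-fold higher in replicate 2 (Npc1l1, Apoa1, Soat2, Apob and Nr1h3) and 1, the lipoprotein receptor gene Scarb1, was lower (56.4 and 15.8 TPM). The list median was 0.59.

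The remaining genes of subfamily A encode lipid transporters, each known from particular tissues, and few were found here. Abca3, which fills the surfactant bodies of the lung, was at 11.4 and 30.3 TPM (20.9 ± 13.4, SD, n = 2). Abca7, a phospholipid transporter related to Abca1, was at 14.5 and 27.3 TPM (20.9 ± 9.05, SD, n = 2). Abca2, known from the myelin-forming cells of the brain, was at 14.9 and 12.6 TPM. With Abcc3 and Abcc9 it is 1 of 3 among the 30 genes of mean TPM 1 or more that were higher in replicate 1. The same count was not made for all genes. The counts of Abca2 were 3777 and 1955. Its centred difference of -0.89 passed 2-fold in 4 of the 12 other settings, reaching -1.36 with TMM factors and -1.20 with coding transcripts alone. Abca8a was at 1.14 and 2.41 TPM, but 59.0% and 66.5% of this was assigned to a processed transcript of 299 nt with 2.17 and 5.15 counts. Its coding transcripts alone were at 0.47 and 0.81 TPM, under 1 TPM in both libraries. The other 11 were under 1 TPM in both libraries, with a highest value of 0.16 TPM. Among these, Abca12, the keratinocyte lipid transporter, Abca15 and Abca16 had no counts in either library. For Abca12 a count of 0, taken as up to 3 counts, corresponds by counting error alone to 0.0158 and 0.0203 TPM, while the upper bounds of its deposited credibility intervals were higher, at 0.0777 and 0.0997 TPM. Abca4, the retinoid flippase of the eye, had 12 and 5 counts, and its TPM of 0.16 and 0.04 lay below the deposited credibility interval in both libraries.

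The exporters of drugs and conjugates split. Abcc3, an exporter of glucuronides and bile acids that is known from the blood-facing membrane, (ENSMUSG00000020865.12, chromosome 11, 94343295 to 94392997, minus strand) was at 150 TPM (17415 counts) in replicate 1 against 34.3 TPM (2767 counts) in replicate 2 (92.0 ± 81.6, SD, n = 2). It was the most abundant ABC gene of replicate 1 and ranked 7 in replicate 2. Its centred log2 difference of -2.76 was the lowest of the family. Abcc2, the exporter of similar conjugates at the luminal membrane, was at 20.2 and 40.5 TPM (30.4 ± 14.3, SD, n = 2). The order of the pair was therefore opposite in the libraries, with 7.40 TPM of Abcc3 per TPM of Abcc2 in replicate 1 and 0.847 in replicate 2.

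Several marker lists were, like Abcc3, lower in replicate 2 after centring. All 13 exocrine pancreas genes, all 8 stomach genes whose mean reached 1 TPM and 6 of 9 proximal genes were at least 2-fold lower in replicate 2, with median centred differences of -9.55, -9.00 and -2.30. Their summed levels are given above, and the stomach proton pump genes Atp4a and Atp4b were under 1 TPM in both libraries. The smooth muscle list had a median of -0.88, with all 6 genes below 0 and 1 beyond 2-fold. The part of pancreas, stomach, muscle or segment content in the value of Abcc3 was not tested. Among the 14 genes of drug sensing and conjugation, the glutathione transferase genes Gsta1 (128 and 12.6 TPM) and Gstm1 (297 and 107 TPM) were also at least 2-fold lower in replicate 2, and Ugt1a1, the bilirubin glucuronidation gene, was higher there (17.7 and 71.5 TPM).

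Abcb1a and Abcg2, the multidrug pumps of the luminal membrane, both had the higher value in replicate 2. Abcb1a (chromosome 5, 8660077 to 8748575, plus strand), which encodes P-glycoprotein, was at 7.34 and 23.3 TPM (15.3 ± 11.3, SD, n = 2). Abcg2 (chromosome 6, 58584523 to 58695676, plus strand), the breast cancer resistance protein gene, was at 4.67 and 14.3 TPM (9.50 ± 6.83, SD, n = 2). Their centred differences, 0.88 and 0.77, did not reach 2-fold. The second P-glycoprotein gene of mouse, Abcb1b, was nearly absent, at 0.09 and 0.21 TPM (19.25 and 34.93 counts). Nr1i2, the pregnane X receptor gene and a known inducer of these pumps, was at 20.4 and 59.5 TPM, a centred difference of 0.83.

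RefSeq lists 3 starts for Abcg2. Transcripts within 50 bases of the start at 58640546 held 99.4% of the gene's TPM in replicate 1 and 99.2% in replicate 2, and those at the starts at 58584533 and 58596672 were listed at 0 TPM. The separation is less sharp with posterior mean percents. The leading transcript from this start, Abcg2-202, then held 83.9% and 86.8%, against 95.35% and 91.07% by listed TPM. The 250 bases before the start at 58640546, chr6:58640296-58640545 (GRCm38.p6, plus strand), are shown because they precede the transcripts with nearly all of the listed TPM. Capitals mark GGGCGG, the GC box bound by Sp1 and its relatives, on either strand:
Abcg2: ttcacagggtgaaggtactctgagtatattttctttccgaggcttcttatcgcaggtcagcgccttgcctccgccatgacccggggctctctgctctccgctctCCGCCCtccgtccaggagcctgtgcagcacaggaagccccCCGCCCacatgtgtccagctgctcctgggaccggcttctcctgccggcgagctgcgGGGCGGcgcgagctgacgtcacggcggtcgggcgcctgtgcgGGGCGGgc
The box occurs 4 times, and neither AGATAA nor TATAAA was found in these letters. GGGCGG was present in 35.7% of all windows of 300 bases and in 18 of the 38 ABC genes (47.4%), against 38.2% of all genes.

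Abcc6 (ENSMUSG00000030834.5, chromosome 7, 45967555 to 46030302, minus strand), whose product drives ATP release and whose loss causes ectopic calcification, was at 3.09 TPM (538 counts) in replicate 1 against 15.6 TPM (2060 counts) in replicate 2 (9.33 ± 8.82, SD, n = 2). Its centred difference of 1.35 was the next below those of Abcg8 and Abcg5. The enterocyte and distal lists moved the same way, and their part was not tested. Abcc10, a broad drug exporter, was at 23.2 and 30.7 TPM, Abcc5, an exporter of cyclic nucleotides, at 6.79 and 8.45 TPM, and Abcc1, which exports glutathione conjugates, at 2.19 and 2.99 TPM. The replicate 1 value of Abcc1 lay below its deposited credibility interval, 2.36 to 4.54 TPM. Abcc4, another cyclic nucleotide and bile acid exporter, was at 0.62 and 1.03 TPM. Abcc12 had 1 and 4 counts. Abcb5, a drug pump known from pigment cells, had none in either library, and Abcg3, a rodent relative of Abcg2, was at 0.16 and 0.43 TPM.

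Bile transporters of the liver were at or near 0. Abcb11, the bile salt export pump of hepatocytes, had no counts in either library, which by counting error alone corresponds to at most 0.0162 and 0.0208 TPM. The upper bounds of its deposited intervals were 0.154 and 0.191 TPM. Abcb4, which moves phosphatidylcholine into bile, had 0 and 14 counts (0 and 0.09 TPM). The 5 liver genes summed to 9.75 and 3.44 TPM.

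Abcc8 and Abcc9 encode the sulfonylurea receptor subunits of potassium channels, Abcc8 in islet and nerve cells and Abcc9 in muscle. Abcc8 was at 0.95 TPM (229 counts) in replicate 1 against 0.47 TPM (88 counts) in replicate 2. The endocrine pancreas list summed to 103 and 17.6 TPM, mostly through the insulin gene Ins2 (76.7 and 0.51 TPM), whereas the glucagon gene Gcg went the other way (2.44 and 15.6 TPM) and Iapp was at 1.66 and 1.47 TPM. The part of islet content in the value of Abcc8 was not tested. Kcnj11, the pore partner of Abcc8, was at 0.52 and 0.45 TPM. Abcc9 was at 1.48 and 1.27 TPM (1.38 ± 0.148, SD, n = 2), with a centred difference of -0.79. Its pore partner Kcnj8 was at 5.35 and 4.73 TPM (-0.81), and the smooth muscle list had a median of -0.88. The part of muscle content in the difference of Abcc9 was not tested.

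The subfamily B transporters of mitochondria and lysosomes were present in both libraries and lay close to the median gene. Abcb8, an inner membrane transporter of mitochondria, was at 36.9 and 55.9 TPM (46.4 ± 13.4, SD, n = 2). Abcb10, which is needed for heme synthesis, was at 12.3 and 14.9 TPM, Abcb6, linked to porphyrin transport, at 12.1 and 18.1 TPM, and the lysosomal peptide transporter gene Abcb9 at 9.69 and 17.5 TPM. The centred differences of these 4 genes ran from -0.40 to 0.13. Of 7 partner genes of heme and iron-sulfur synthesis, 6 were also within 2-fold and only the mitochondrial iron importer gene Slc25a37 was beyond it (10.3 and 87.5 TPM).

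A few ABC genes, 3 here, carry other names and were looked at beside the family. Tap1 and Tap2 encode the dimer that feeds peptides to MHC class I, and were at 28.2 and 82.1 TPM and at 24.4 and 54.1 TPM. Cftr, the chloride channel that is itself an ABC protein, was at 1.41 and 1.54 TPM (1.48 ± 0.0919, SD, n = 2). B2m, the light chain of MHC class I, was at 229 and 1085 TPM, the only 1 of 6 peptide loading genes that was at least 2-fold higher in replicate 2.

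Subfamily D holds transporters of peroxisomes and lysosomes. Abcd3, the peroxisomal transporter of branched chain and bile acid precursors, was at 3.99 and 9.38 TPM. Abcd4, which releases vitamin B12 from lysosomes, was at 4.47 and 15.7 TPM (10.1 ± 7.96, SD, n = 2), and its centred difference of 0.95 fell just short of 2-fold. Abcd2, a peroxisomal transporter of very long chain fatty acids, had 8 and 11 counts (0.03 and 0.05 TPM). The peroxisomal thiolase gene Acaa1a was at 311 and 635 TPM, and all 6 peroxisome partner genes were within 2-fold.

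The soluble proteins of subfamilies E and F act in translation. Abcf1, a partner of initiation factor 2, was at 42.1 and 69.0 TPM (55.5 ± 19.0, SD, n = 2), Abcf2 at 16.3 and 26.4 TPM and Abcf3 at 7.46 and 11.5 TPM. Abce1, which splits ribosomes at the end of translation, was at only 1.35 TPM (245 counts) and 2.05 TPM (290 counts), while its partner Pelo was at 10.2 and 15.1 TPM. The centred differences of the 4 genes ran from -0.29 to 0.04, and all 7 translation partner genes were within 2-fold.

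Set beside all genes, the family as a whole did not stand out in how far the libraries differed. Of the 30 ABC genes whose mean reached 1 TPM, 3 (Abcg5, Abcg8 and Abcc6, or 10%) were at least 2-fold higher in replicate 2 after centring. The share of all genes was 5.02%. Only Abcc3 (3.33%) was at least 2-fold lower, against 6.33%. The remaining 26 were within 2-fold. The median of the family was 0.00, with quartiles of -0.31 and 0.42, against -0.35 and 0.33 for all genes. The deposited credibility intervals bound TPM that is not centred, so the general shift of 0.66 enters here. The intervals of the libraries were apart with replicate 2 above for 22 of the 30 genes (73.3%, against 73.5% of all genes) and with replicate 1 above for Abcc3 alone (3.33%, against 6.38%). Some of the 22 had negative centred differences, as Abcb10 (-0.40) and Abce1 (-0.29). The signs of 14 of the 30 genes changed over 12 other ways of scaling or selecting. This count was not made for all genes, so it marks no trait of the family. Abcg5, Abcg8 and Abcc6 were at least 2-fold higher and Abcc3 at least 2-fold lower in each of the 12. Not all of the 12 are separate checks. Changing the TPM minimum, centring on coding genes or leaving centring out moved the ratio of every gene by the same constant. For Abcb10, Abcc1 and Abcc5 the sign changed only where centring was left out.

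**Figure D2:**
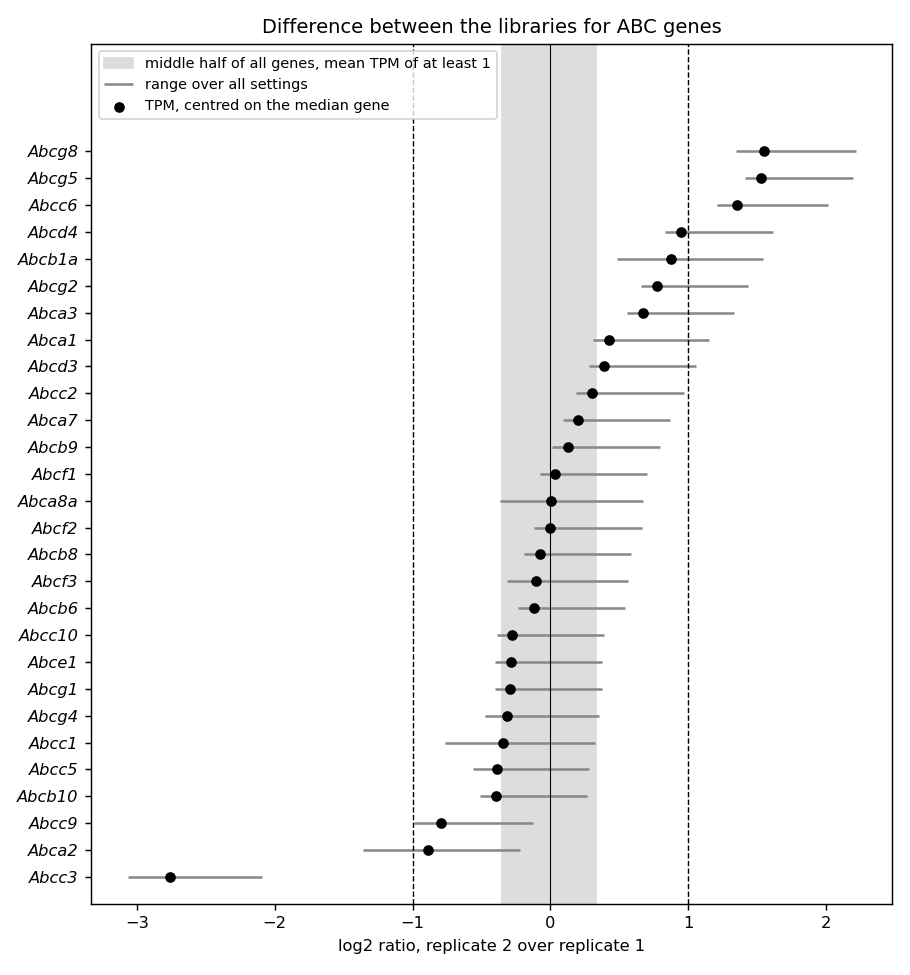
Centred log2 ratio of replicate 2 over replicate 1 for 28 of the 30 ABC genes whose mean reached 1 TPM (points), the range over the 13 settings (lines), the range from the lower to the upper quartile of all genes (grey band) and 2-fold lines (dashed). Abcg8, Abcg5 and Abcc6 lie beyond the upper line and Abcc3, at -2.76, beyond the lower line, with their whole ranges.

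**Figure D3:**
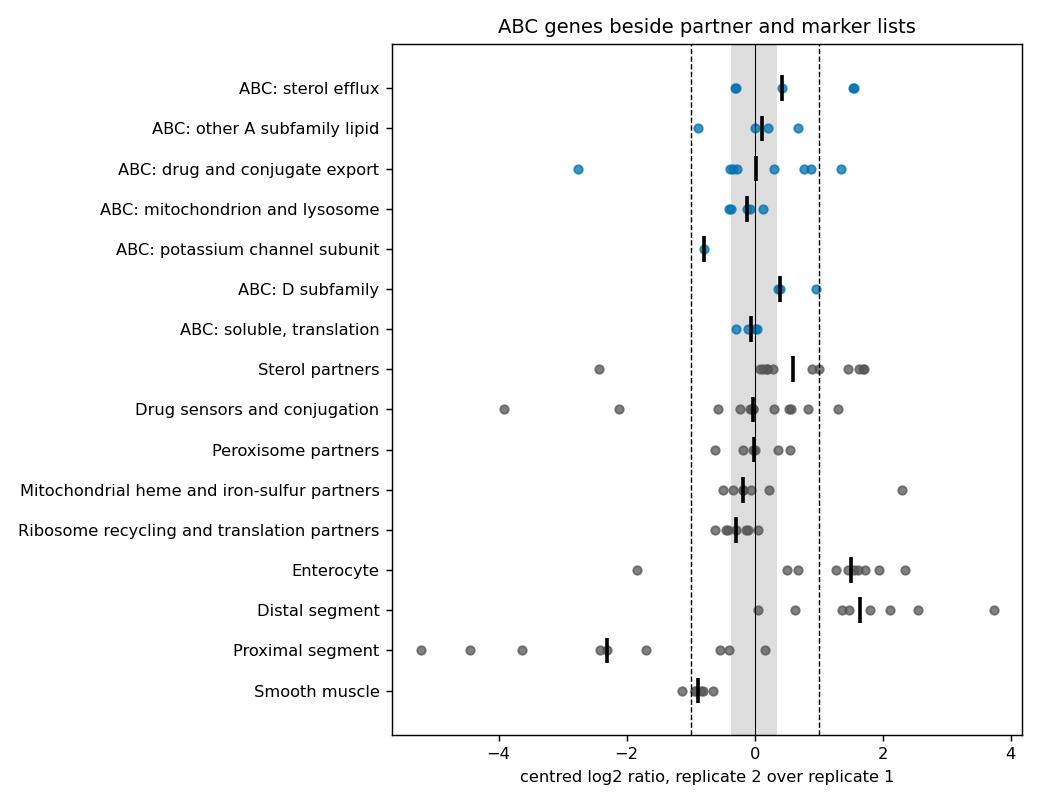
Centred log2 ratio of replicate 2 over replicate 1 for single genes whose mean reached 1 TPM (points), by ABC role (blue) and by 9 of the partner and marker lists (grey), with list medians as bars, the range from the lower to the upper quartile of all genes as a band and 2-fold lines dashed. The exocrine pancreas and stomach lists lie off to the left at medians of -9.55 and -9.00 and are not drawn; enterocyte genes, at a median of 1.50, lie near Abcg5 and Abcg8.

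The level of a gene sums over its transcripts, and for several ABC genes most of the TPM came from transcripts that the annotation does not class as protein-coding. The leading transcript of a gene is here the one with the highest mean share of TPM over the libraries, and it need not lead in each. Of the 24 genes at 1 TPM or more in both libraries with more than 1 transcript, the leading transcript was classed as noncoding for 7 (29.2%), against 17.7% of 7812 such genes in all. Under 50% of TPM in coding transcripts in both libraries was found for 6 of the 29 genes (20.7%), against 11.7% of all detected protein-coding genes. For Abcc3, a processed transcript of 567 nt held 51.8% of TPM in replicate 1 and 61.4% in replicate 2. By counts, coding transcripts held 91.7% and 89.4% of Abcc3, because a short transcript needs few fragments for a high TPM. Counting coding transcripts alone, Abcc3 was at 65.8 and 13.1 TPM, and its centred difference was -2.90. Abcc2 was then at 10.7 and 30.1 TPM, so the order of the pair was still opposite in the libraries. The rank of Abcc3 in replicate 2, 7 by all transcripts, was lower by coding transcripts.

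Abcb1a went further, since coding transcripts held a minority by counts as well, 29.2% and 29.4%. Its leading transcript, Abcb1a-202, a retained intron model of 2705 nt, took 82.4% and 80.2% of TPM. That model shares 93.6% of its bases with coding exons and ends within 5 bases of the coding transcript's end. Coding transcripts alone put Abcb1a at 1.29 and 4.06 TPM. For Abcc5 the leading model is 4875 nt long in the deposited tables but 523 nt in the annotation used here, so its class is uncertain. Abcf1, Abca8a and Abcg4 also had a noncoding leading transcript by the mean of the libraries. In replicate 2, however, a coding transcript held more of the TPM for Abcf1 (48.1% against 46.5%) and for Abcg4 (36.3% against 29.6%).

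**Figure D4:**
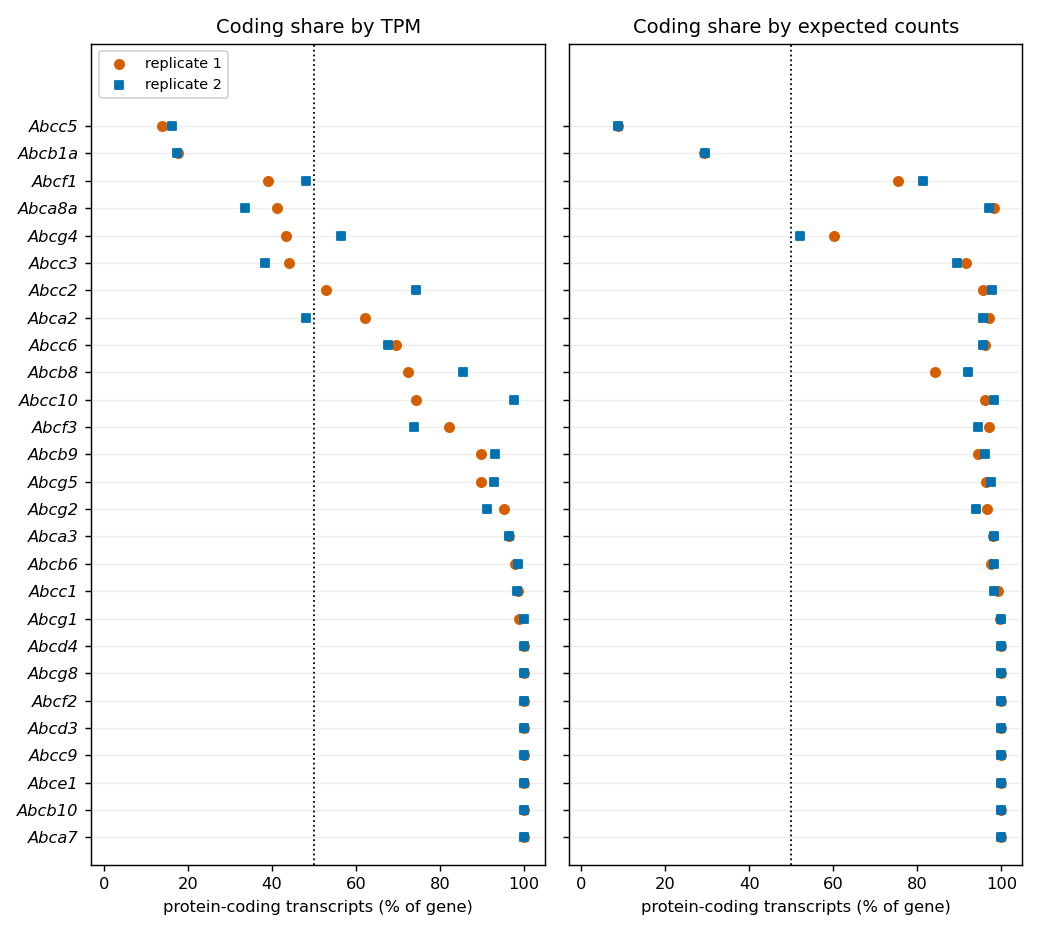
Share of each gene's TPM (left) and expected counts (right) that came from protein-coding transcripts, in percent, for 27 of the 29 ABC genes with at least 1 TPM in both libraries (circles, replicate 1; squares, replicate 2; dotted line, 50%). Abcc3 and Abca8a lie under the line by TPM but near 90% or above by counts, whereas Abcb1a and Abcc5 lie under it by both.

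A gap of more than 20 percentage points between the libraries in the share of the leading transcript was found for 3 of the 24 genes (12.5%), near the 13.2% of all such genes. These were Abcb8, Abcc1 and Abcc10. For Abcb8, a coding transcript of 2939 nt was assigned 0% of TPM in replicate 1 and 79.2% in replicate 2, and another of 3074 nt was assigned 63.3% and 1.24%. Whether this is transcript use or the assignment of reads between the models was not tested. The leading transcript of Abcc1 held 98.7% and 69.0% of TPM, and that of Abcc10 54.8% and 83.7%. By counts the shares were 99.1% and 95.8% for Abcc1 and 70.9% and 84.2% for Abcc10. With posterior mean percents they were 63.6% and 49.5% for Abcc1, a gap under 20 points, and 54.5% and 81.8% for Abcc10. In replicate 2 a transcript of Abcc1 of 614 nt held 29.0% of TPM on 13.56 counts. The leading transcript of Abcg5 was at 59.3% and 60.1% of TPM.

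Near copies limit a few of these values. Transcripts of 5 pairs of ABC genes share at least 1 stretch of 76 nt, the read length. The largest overlap was that of Abcb1a and Abcb1b, with 516 shared stretches, 9.50% of those of Abcb1a and 12.2% of those of Abcb1b, so the division of reads between these 2 is uncertain. Abcb6 shares 55.2% of its exonic bases on the same strand with Gm29253, which was listed at 2.94 and 1.28 TPM.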

How the data were processed

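Each library has a gene table and a transcript table. Per the file headers these hold expected counts (estimated fragments, which need not be whole), TPM, FPKM and, for transcripts, the percent of the gene's TPM. The authors deposited posterior mean TPM and bounds of a credibility interval, of unstated level, as well. The deposited text beside the tables names mm10 and annotation M4. No aligner is named: that step is not given in the sources used here, nor is the quantifier. TPM runs over all features, spike-ins included.

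Gene names, classes and positions were taken by stable identifier from GENCODE M21 (GRCm38, the assembly also called mm10), which matched 42462 of 43346 Ensembl genes (98.0%). Of 149 transcripts of the 29 detected genes, 132 had the same length in M21. Promoters came from RefSeq (GRCm38.p6), which held 38 of the 50 genes.

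Levels, ratios and counts were computed in Python 3.11.15 with pandas 2.3.3. edgeR 4.0.16 (TMM) and DESeq2 1.42.0 (size factors) on rounded expected counts gave alternative scalings only. Ratios use a pseudocount of 1, genes averaging 1 TPM or more and a 2-fold line. Any member could be named, and partner and marker genes came from fixed lists. Members and lists were chosen with earlier results of these data known. The ratio step was tested on simulated libraries drawn from a shared mean profile. Neither had an excess of pancreas or stomach RNA over the other, so that feature of these data was not covered. Intervals for counts of 0 cover counting error only. Values of a few single genes are not reported here, though counts and sums over the family include them.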

Additional observations from a re-analysis of the deposited data

How the results depend on the processing

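The count of 29 genes at 1 TPM or more in both libraries became 18 at a minimum of 5 TPM. With protein-coding transcripts only, a setting chosen after the values were seen, it was 25. Without 1 replicate it ranged from 29 to 31, and the summed level from 564 to 1089 TPM. The 3 genes at least 2-fold higher in replicate 2 became 7 of 45 with no TPM minimum (6.48% of all genes), 5 of 30 with a pseudocount of 0.1 (6.07%) and 10 of 30 (24.9%) without centring, where the family's median ratio was 0.67. The 1 gene at least 2-fold lower became 2 with a TPM minimum of 0.5, a pseudocount of 0.1, TMM factors, DESeq2 size factors or, chosen after the values were seen, protein-coding transcripts only, where the median ratio was 0.17; the shares of all genes there ran from 5.74% to 8.47%. The median share of the leading transcript, 65.6%, was 59.9% with posterior mean percents. The cause was not tested. The summed level moved by less than the SD between libraries (372 TPM) in the 7 alternatives run for it. Leaving out either of 2 libraries can never move their mean by more than that SD, so those alternatives could not fail. The SD is wide: the level without Abcg5 and Abcg8, 517 against 826 TPM, also lay within it. No stability of the level can be read from this. Without the exocrine pancreas and stomach lists the median gene lay 0.29 higher in replicate 2, in place of 0.66. No paired analysis was possible because there is 1 group. With 2 libraries no test could be made. Depth limits the members that rest on few counts.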
